A study of Mus musculus with 12 samples.

Results

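The genes described here make sterols or are controlled by the sterol-sensing transcription factors SREBP. A list of 31 genes was drawn up by gene function, with earlier results of these data known. Counts of its members beside the shares of all genes are therefore descriptions. Of the 31 genes 28 were measured among 22180 genes on the arrays. A gene counted as measured when a transcript cluster, the array's probe group for 1 transcript, carried its symbol and no other. Idi1 and Scd2 were read only by clusters that carry a second symbol, Acat2 by none, and these 3 genes have no values here. Of the 28 genes, 17 encode enzymes of the route from acetyl units to cholesterol and its isoprenoid branch, 4 encode SREBP and its regulators, 4 act in sterol transport or are targets of the liver X receptors, and 3 make fatty acids.

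As background, SREBP proteins sit in the endoplasmic reticulum and are escorted to the Golgi by Scap when membrane sterol is low. There they are cut, and the released part switches on the genes of sterol synthesis and uptake. Insig1 holds the complex back when sterol is plentiful, and the liver X receptors respond to oxidised sterols by switching on sterol export. T cells raise this pathway when they are activated and divide, because new membranes need cholesterol.

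RNA was measured on 12 Affymetrix arrays, in 4 groups of 3. All T cells came from C57BL6-Foxp3-GFP mice, in which green fluorescent protein (GFP) marks cells that express Foxp3, the factor that defines regulatory T cells. They were stimulated by BALB/c dendritic cells sorted by CD11c, a foreign strain to the T cells, with 200000 T cells and 20000 dendritic cells in a well. The CD8 control and CD4 control groups were GFP-negative cells from wells with IL-2 alone (5 ng/mL). The CD8 Foxp3-positive and CD4 Foxp3-positive groups were GFP-positive cells from wells with IL-2 (5 ng/mL), TGF-β (5 ng/mL) and retinoic acid (40 nM). Treatment and sort therefore changed together and cannot be told apart. Culture lasted 4 days for CD8 and 5 days for CD4 cells, so cell type and culture time cannot be told apart either. Wells were pooled ahead of staining. Whether replicates A to C came from separate cultures or mice is not stated in the labels, so the p-values measure the spread between these arrays alone, which may be technical. The ages of the mice are not given in the labels.

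Levels are the deposited log2 values, so a difference of 1 is a 2-fold change in array signal. Group levels are mean ± SD over 3 arrays. Differences carry the standard error of a limma model, and adjusted p is its p-value after Benjamini-Hochberg adjustment over all 22180 genes. A gene rose or fell where adjusted p was under 0.05. The deposited values give every array nearly the same distribution, with array medians of 5.23 to 5.33, so they cannot show a change in a cell's total RNA. In these bulk samples fewer cells that express a gene and less RNA per cell cannot be told apart. Foxp3 followed the labels, at 12.48 ± 0.05 and 12.44 ± 0.05 in the sorted groups and 5.66 ± 0.59 and 5.76 ± 0.29 in the CD8 and CD4 controls. Arrays of 1 group correlated at 0.992 to 0.994 across genes, which are not independent replicates, and no array stood apart by this measure. No level of background was given for the arrays, and the median of all genes' means was 5.60.

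Promoters of 6 members are shown. Those of Hmgcs1 and Srebf2 hold a match to a sterol regulatory element. Those of Abca1, Srebf1 and Fasn hold a match to a liver X receptor element. That of Hsd17b7, a gene with a large fall in CD4 cells, holds CCAAT boxes and neither match. Each is the 250 bases before the transcription start on the gene's own strand, from RefSeq, build GRCm38.p6. Capitals mark CCAAT in either direction (read as ATTGG on the other strand), the sterol regulatory element TCACNCCA, and a paired element of the liver X receptors, GGTNA and GGTCA 5 bases apart, in either direction. The windows are chr13:119690101-119690350 on the plus strand, chr15:82147019-82147268 on the plus strand, chr1:169969206-169969455 on the minus strand, chr4:53159896-53160145 on the minus strand, chr11:60210472-60210721 on the minus strand and chr11:120824548-120824797 on the minus strand.
Hmgcs1: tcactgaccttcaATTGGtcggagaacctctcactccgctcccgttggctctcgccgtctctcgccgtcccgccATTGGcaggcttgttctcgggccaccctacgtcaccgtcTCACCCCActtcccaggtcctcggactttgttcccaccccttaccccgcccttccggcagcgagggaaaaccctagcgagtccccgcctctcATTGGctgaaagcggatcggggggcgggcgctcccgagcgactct
Srebf2: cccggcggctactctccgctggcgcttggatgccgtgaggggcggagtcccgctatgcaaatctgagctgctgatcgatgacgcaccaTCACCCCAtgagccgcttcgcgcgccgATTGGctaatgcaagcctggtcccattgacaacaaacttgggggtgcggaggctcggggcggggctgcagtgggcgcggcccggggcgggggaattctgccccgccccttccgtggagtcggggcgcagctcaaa
Hsd17b7: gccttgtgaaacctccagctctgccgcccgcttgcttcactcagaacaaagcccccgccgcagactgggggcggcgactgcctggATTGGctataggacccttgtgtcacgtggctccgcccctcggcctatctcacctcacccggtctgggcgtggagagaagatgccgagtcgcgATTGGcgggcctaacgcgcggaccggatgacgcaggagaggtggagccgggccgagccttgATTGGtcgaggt
Abca1: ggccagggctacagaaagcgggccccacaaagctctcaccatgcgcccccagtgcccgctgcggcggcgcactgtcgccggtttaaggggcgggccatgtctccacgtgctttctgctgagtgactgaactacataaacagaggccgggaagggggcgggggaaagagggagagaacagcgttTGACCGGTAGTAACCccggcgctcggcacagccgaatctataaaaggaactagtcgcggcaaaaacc
Srebf1: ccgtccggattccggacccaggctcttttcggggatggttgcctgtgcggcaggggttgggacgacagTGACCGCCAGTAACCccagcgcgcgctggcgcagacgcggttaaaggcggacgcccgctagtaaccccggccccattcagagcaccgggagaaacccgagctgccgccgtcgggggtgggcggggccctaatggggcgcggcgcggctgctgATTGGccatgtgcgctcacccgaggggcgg
Fasn: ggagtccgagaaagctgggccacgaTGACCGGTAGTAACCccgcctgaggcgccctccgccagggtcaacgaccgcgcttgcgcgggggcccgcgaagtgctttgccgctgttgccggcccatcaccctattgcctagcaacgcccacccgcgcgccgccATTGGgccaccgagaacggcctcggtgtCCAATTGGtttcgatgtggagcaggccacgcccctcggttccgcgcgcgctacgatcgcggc

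The promoter table held 22 of the 28 measured members; Fdps, Fdft1, Sqle, Stard4, Abcg1 and Scd1 were missing from it. CCAAT, the box bound by NF-Y, a partner of SREBP, was in a window of 19 of the 22 genes (86.4%). It was in 33.8% of the 32851 promoters of the same length, and in a window of 37.5% of all genes. Scap, Abca1 and Acaca were the members without it, and Mvk held the most copies, at 5. The element TCACNCCAC was found for 1 of 22 members, Hmgcs1, and for 1.22% of all genes. Its shorter form TCACNCCA, which every TCACNCCAC also holds, was found for 3 of 22 members (13.6%) and for 4.2% of all genes. It began 137 bases before the start of Hmgcs1, 162 before that of Srebf2 and 177 before that of Msmo1, whose promoter is not shown. The E-box CACGTG was found for 6 members (27.3%) and for 6.86% of all genes (6.02% of promoters). The paired GGTNA and GGTCA was found for Abca1, Srebf1 and Fasn (13.6% of 22) and for 0.189% of all genes, in 58 promoters. It began 67 bases before the start of Abca1, 182 before the Srebf1 start shown, which is 1 of several, and 225 before that of Fasn. The shorter element and the paired element were added after these promoters had been read, so their counts are descriptions. A match is no proof of a bound site.

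In CD8 cells sterol synthesis genes were lower in the Foxp3-positive group along nearly the whole route, while the sterol exporters were higher. Of the 28 members 20 fell, against 10.6% of all genes, and 3 rose, against 9.39% of all genes. The median difference of the members was -0.63 on the log2 scale, and that of all genes was -0.02. Of the 17 synthesis enzymes 15 fell and none rose. In each of the 23 called members no sorted array fell within the range of the controls. The calls rest on these same arrays, so this is not separate evidence. The share of all genes without overlap was not counted.

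**Figure D1:**
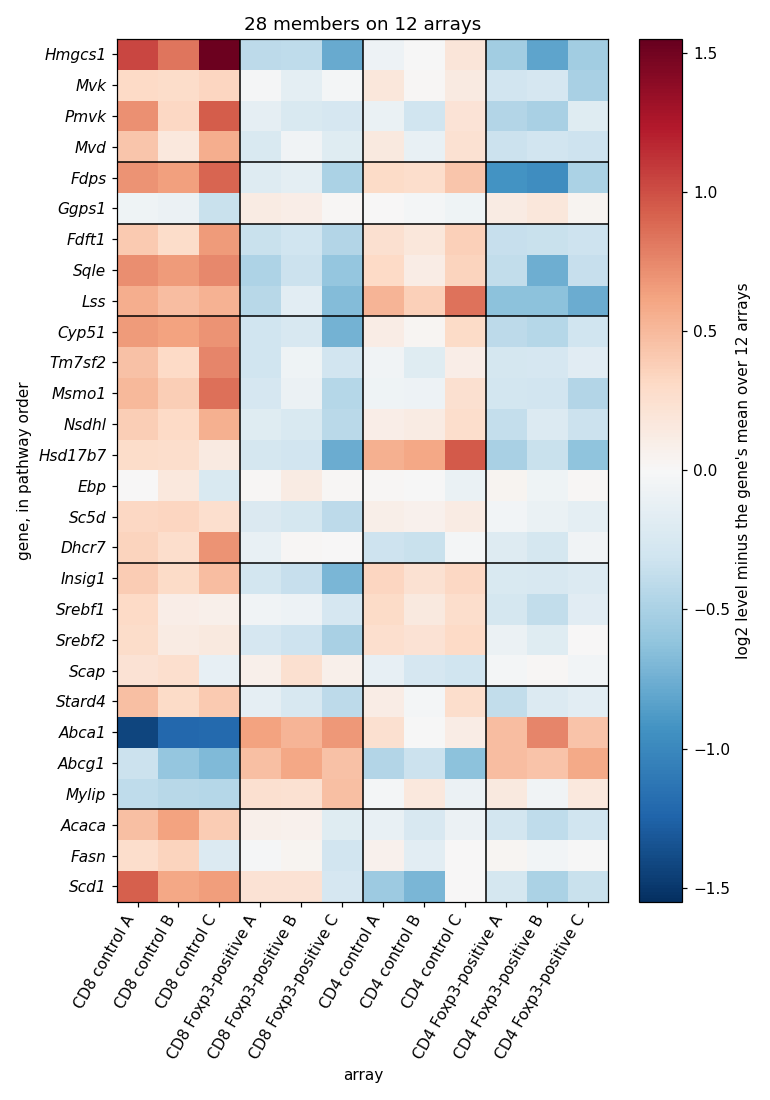
Log2 level of each of the 28 members on each of the 12 arrays, minus the gene's mean over all arrays (colour, red above and blue below). Genes run down in pathway order with lines between roles; the CD8 controls form a red block over most enzymes, and Abca1, Abcg1 and Mylip run the other way.

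Hmgcs1 had the largest fall of all members. This enzyme of the early mevalonate steps makes HMG-CoA, and its promoter holds the match to a sterol element printed above. Hmgcs1 stood at 11.33, 11.13 and 11.82 on the CD8 control arrays A, B and C. It stood at 9.90, 9.91 and 9.52 on the CD8 Foxp3-positive arrays. The highest sorted array was thus below the lowest control, and the fall was 3.15-fold (log2 difference -1.65 ± 0.17, adjusted p = 1.38e-05). The next 3 enzymes turn mevalonate into the isoprenoid unit. The kinase Mvk fell from 7.78 ± 0.02 to 7.40 ± 0.07 (adjusted p = 0.00873). The second kinase Pmvk fell from 8.97 ± 0.31 to 8.10 ± 0.06 (adjusted p = 0.00169). The decarboxylase Mvd fell from 8.29 ± 0.20 to 7.75 ± 0.10 (adjusted p = 0.00468).

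Fdps, which joins isoprenoid units into farnesyl diphosphate, was at 10.49, 10.43 and 10.71 in CD8 controls and at 9.60, 9.66 and 9.32 in CD8 Foxp3-positive cells. All sorted arrays were below all controls, a 2.03-fold fall (log2 difference -1.02 ± 0.14, adjusted p = 0.000138). Ggps1 makes the longer isoprenoid used to anchor proteins in membranes and draws from the route before squalene. It was at 8.79 ± 0.15 in controls and 9.04 ± 0.05 in sorted cells, and this difference of 0.25 did not pass (adjusted p = 0.076). It was the enzyme with the largest positive difference of the 17.

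The 3 enzymes from squalene to lanosterol all fell. Sqle, the squalene epoxidase, was at 9.59, 9.53 and 9.61 in CD8 controls and at 8.38, 8.53 and 8.27 in CD8 Foxp3-positive cells. The controls lay close together and all sorted arrays well below them, a 2.27-fold fall (log2 difference -1.18 ± 0.12, adjusted p = 1.13e-05). Lss, which closes the sterol rings, was at 9.24, 9.16 and 9.21 and at 8.25, 8.51 and 8.00 (1.93-fold lower, log2 difference -0.95 ± 0.14, adjusted p = 0.000251). Fdft1, the squalene synthase, fell from 10.08 ± 0.19 to 9.26 ± 0.07 (adjusted p = 7.54e-05).

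Of the 8 enzymes that turn lanosterol into cholesterol 7 fell. Cyp51, the lanosterol demethylase, was at 10.03, 9.99 and 10.07 in CD8 controls and at 9.06, 9.12 and 8.64 in sorted cells, with no overlap (2.13-fold lower, log2 difference -1.09 ± 0.12, adjusted p = 3.01e-05). Msmo1, Nsdhl and Hsd17b7, which take off the methyl groups next to the sterol's hydroxyl group, fell by 0.85, 0.69 and 0.68 on the log2 scale (adjusted p = 0.00066, 0.00023 and 0.00447). The reductase Tm7sf2 fell from 8.06 ± 0.23 to 7.33 ± 0.13 (adjusted p = 0.000796). The desaturase Sc5d stood at 9.75, 9.76 and 9.70 in controls and at 9.21, 9.17 and 9.03 in sorted cells (log2 difference -0.60 ± 0.08, adjusted p = 0.000126). Dhcr7, the reductase of the last step, fell from 9.75 ± 0.23 to 9.28 ± 0.08 (adjusted p = 0.0165). That call was lost without CD8 control C (difference -0.34, adjusted p = 0.0586) or without CD8 Foxp3-positive A (adjusted p = 0.0658). The isomerase Ebp was at 9.29 ± 0.20 and 9.37 ± 0.07, with overlapping arrays and a difference of 0.07 (95% interval -0.15 to 0.30, adjusted p = 0.716).

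The regulators split. Insig1 was at 10.74, 10.64 and 10.82 in CD8 controls and at 10.05, 9.98 and 9.64 in CD8 Foxp3-positive cells. The groups did not overlap, and the fall was 1.79-fold (log2 difference -0.84 ± 0.11, adjusted p = 8.74e-05). Srebf2, which encodes the SREBP of sterol genes, was at 11.01, 10.85 and 10.87 and at 10.46, 10.40 and 10.22 (1.47-fold lower, log2 difference -0.55 ± 0.09, adjusted p = 0.00082). Srebf1, which encodes the SREBP more tied to fatty acids, was at 8.73 ± 0.13 and 8.44 ± 0.11 and did not pass (difference -0.29, adjusted p = 0.0538). The escort Scap was at 9.33 ± 0.22 and 9.35 ± 0.09, a difference of 0.02 (95% interval -0.21 to 0.26).

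Sterol transport moved in both directions. Abca1 passes cholesterol from the cell to lipid-poor carriers. It was at 5.41, 5.61 and 5.62 in CD8 controls, near the median of all genes, and at 7.45, 7.35 and 7.50 in CD8 Foxp3-positive cells. The groups were far apart, and the rise was 3.69-fold in signal (log2 difference 1.88 ± 0.11, adjusted p = 9.18e-08), the largest difference among the members. Abcg1, a second exporter, was at 8.27, 8.01 and 7.92 in controls and at 9.07, 9.21 and 9.05 in sorted cells (2.06-fold higher, log2 difference 1.04 ± 0.11, adjusted p = 1.96e-05). Mylip, a ubiquitin ligase that lowers lipoprotein uptake and is a liver X receptor target, was at 6.98, 6.95 and 6.93 and at 7.62, 7.61 and 7.84 (1.67-fold higher, log2 difference 0.74 ± 0.10, adjusted p = 0.000168). Every sorted array of these genes lay above every control. Stard4, which carries cholesterol through the cytosol, fell from 8.65 ± 0.08 to 8.00 ± 0.13 (adjusted p = 0.00067).

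Fatty acid synthesis changed in part. Scd1, the desaturase of stearate, was at 10.18, 9.86 and 9.91 in CD8 controls and at 9.49, 9.49 and 9.00 in sorted cells (1.58-fold lower, log2 difference -0.66 ± 0.18, adjusted p = 0.0204). The call of Scd1 was lost without CD8 control A (-0.56, adjusted p = 0.0896) or CD8 Foxp3-positive C (-0.50, adjusted p = 0.0963). Acaca, the acetyl-CoA carboxylase, fell from 8.89 ± 0.12 to 8.39 ± 0.15 (adjusted p = 0.00253). Fasn, the fatty acid synthase, was at 10.61 ± 0.30 and 10.38 ± 0.18, with overlap. Its difference of -0.23 (95% interval -0.53 to 0.08, adjusted p = 0.323) passed, among the alternatives run, only without CD8 control C (-0.40, adjusted p = 0.0268).

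**Figure D2:**
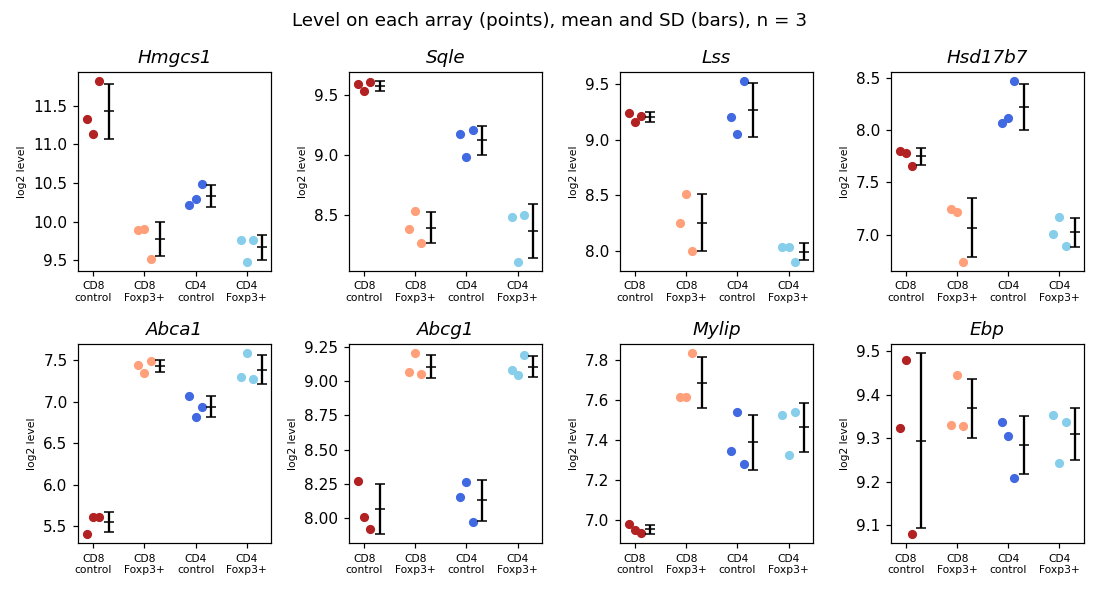
Log2 level of 8 members on each array (points), with mean and SD at the right of each group of 3; each panel has its own scale. Hmgcs1, Sqle, Lss and Hsd17b7 were lower in both sorted groups, Abca1 and Abcg1 higher in both, Mylip higher in sorted than in control CD8 cells, and Ebp overlapped throughout.

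In CD4 cells the same route was lower in the Foxp3-positive group, most strongly at Lss. Of the 28 members 14 fell, against 10.4% of all genes, and 2 rose, against 12.1% of all genes. The member median was -0.36, and that of all genes 0.00. Of the 17 synthesis enzymes 10 fell and none rose. The arrays of the groups did not overlap in any of the 16 called members. Again this is not separate evidence from the calls, and the share of all genes was not counted.

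The steps with the largest falls in CD4 cells were Lss, Hsd17b7 and Fdps. Lss was at 9.21, 9.05 and 9.53 in CD4 controls and at 8.04, 8.04 and 7.91 in CD4 Foxp3-positive cells, a 2.40-fold fall with more than 1 log2 unit between the groups (log2 difference -1.27 ± 0.14, adjusted p = 1.7e-05). Hsd17b7, whose promoter above holds 3 CCAAT boxes, was at 8.07, 8.11 and 8.47 and at 7.01, 7.17 and 6.89 (2.28-fold lower, log2 difference -1.19 ± 0.15, adjusted p = 4.85e-05). Fdps was at 10.10, 10.07 and 10.23 and at 8.87, 8.84 and 9.31 (2.19-fold lower, log2 difference -1.13 ± 0.14, adjusted p = 4.57e-05). No sorted array of these 3 genes reached a control.

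Other enzymes fell by less. Sqle was at 9.18, 8.98 and 9.20 in CD4 controls and at 8.49, 8.11 and 8.50 in sorted cells (1.69-fold lower, log2 difference -0.76 ± 0.12, adjusted p = 0.000369). Hmgcs1 was at 10.22, 10.30 and 10.49 and at 9.76, 9.48 and 9.76, again without overlap (1.59-fold lower, log2 difference -0.67 ± 0.17, adjusted p = 0.0112). Its call was lost without CD4 Foxp3-positive B (adjusted p = 0.0525). Fdft1, Cyp51, Nsdhl and Mvk fell by 0.60, 0.53, 0.47 and 0.46 on the log2 scale (adjusted p = 0.000771, 0.00608, 0.00358 and 0.00201). Mvd fell from 8.00 ± 0.18 to 7.59 ± 0.01 (adjusted p = 0.0234), a call lost without CD4 control A or C or any 1 of the CD4 Foxp3-positive arrays (adjusted p from 0.0547 to 0.0971). Msmo1 (8.46 ± 0.18 and 8.08 ± 0.09) and Sc5d (9.53 ± 0.03 and 9.33 ± 0.06) did not overlap between groups and did not pass (adjusted p = 0.0684 and 0.0993). Pmvk, Tm7sf2, Ebp and Dhcr7 had overlapping arrays, with differences from -0.31 to 0.05. Ggps1 was at 8.92 ± 0.04 and 9.07 ± 0.07 (adjusted p = 0.297).

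Among the regulators in CD4 cells Insig1 fell from 10.64 ± 0.05 to 10.11 ± 0.01 (adjusted p = 0.00263) and Srebf1 from 8.81 ± 0.08 to 8.29 ± 0.10 (adjusted p = 0.0019). Srebf2 fell from 10.98 ± 0.04 to 10.63 ± 0.10 (adjusted p = 0.0144), and Scap was at 8.98 ± 0.09 and 9.19 ± 0.03 (adjusted p = 0.199). The call of Srebf2 was lost without CD4 control C (adjusted p = 0.0518) or CD4 Foxp3-positive B (adjusted p = 0.0646). Stard4 fell from 8.38 ± 0.15 to 8.01 ± 0.11 (adjusted p = 0.0226), and was not called without CD4 control A (0.0535), CD4 control C (0.0988) or CD4 Foxp3-positive A (0.0936).

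The exporters rose in CD4 cells too. Abcg1 was at 8.15, 8.27 and 7.97 in CD4 controls and at 9.09, 9.04 and 9.19 in sorted cells, well apart (1.97-fold higher, log2 difference 0.98 ± 0.11, adjusted p = 2.43e-05). Abca1 was at 7.07, 6.82 and 6.94 and at 7.30, 7.59 and 7.27 (1.36-fold higher, log2 difference 0.44 ± 0.11, adjusted p = 0.00976). Mylip overlapped, at 7.39 ± 0.14 and 7.46 ± 0.12. The fatty acid genes Acaca, Fasn and Scd1 differed by -0.18, 0.02 and 0.05, and none passed.

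**Figure D3:**
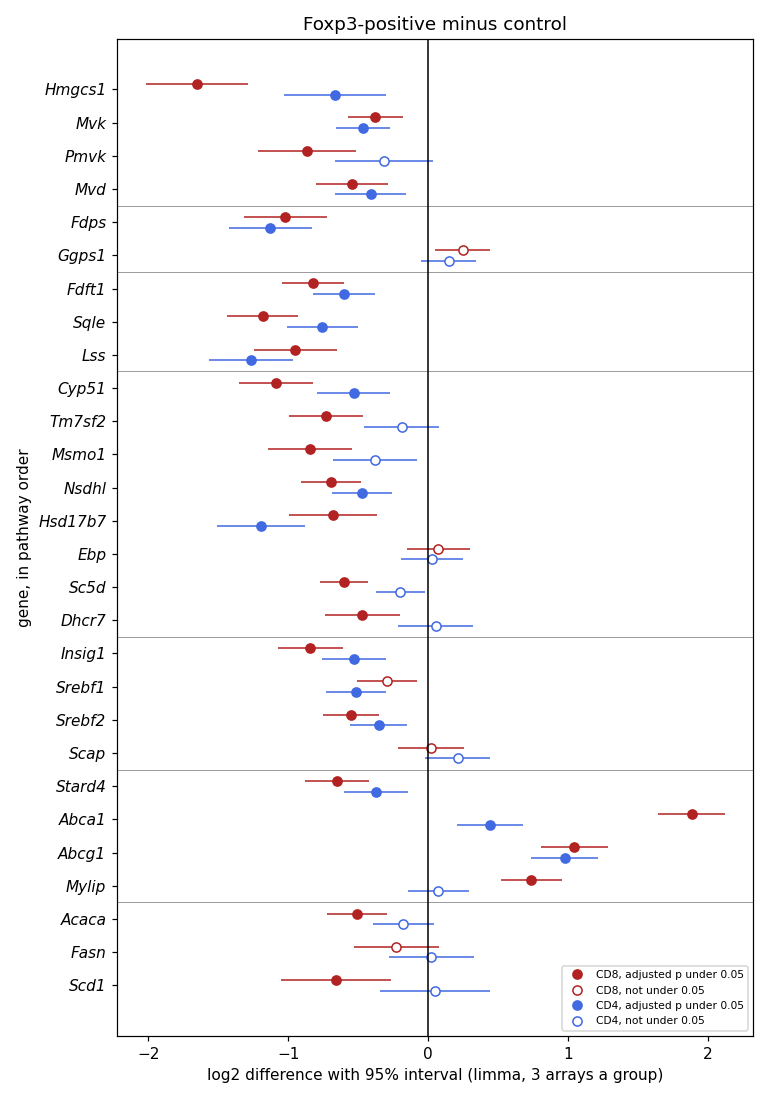
Foxp3-positive minus control log2 difference of each member in CD8 cells (red) and CD4 cells (blue), with 95% intervals from limma; filled points had adjusted p under 0.05. Most enzymes lie left of 0 in both cell types, the exporters Abca1 and Abcg1 lie right of it, and the widest gaps between the cell types are at Abca1 and Hmgcs1.

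Whether the effect differed between CD8 and CD4 cells was tested as an interaction, the CD8 difference minus the CD4 difference. It passed for 5 members. Abca1 and Mylip were higher in it (2 of 28, against 6.01% of all genes), and Hmgcs1, Cyp51 and Sc5d were lower (3 of 28, against 7.48%). The median over the members was -0.22, and over all genes -0.01. For Abca1 the CD8 rise exceeded the CD4 rise by 1.44 ± 0.15 (adjusted p = 6.91e-05), and for Mylip by 0.66 ± 0.14 (adjusted p = 0.00824). For Hmgcs1 the CD8 fall was the larger by 0.99 on the log2 scale (interaction -0.99 ± 0.24, adjusted p = 0.0153). These 3 genes passed in all 12 fits that left out 1 array. Cyp51 (-0.56 ± 0.17, adjusted p = 0.0496) and Sc5d (-0.40 ± 0.11, adjusted p = 0.0321) did not hold as well. Cyp51 was lost in 10 of the 12 fits (0.0542 to 0.116), all but those without CD8 Foxp3-positive B or CD4 control C, and with quantile normalization (0.0568). Sc5d was lost in 9 (0.0511 to 0.0801), all but those without CD8 control C, CD8 Foxp3-positive A or CD4 Foxp3-positive C.

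The count of members lower in the interaction fell from 3 to 1 without CD8 control A, CD8 Foxp3-positive C, CD4 control A, CD4 control B or CD4 Foxp3-positive A. It fell to 2 without CD8 control C, CD8 Foxp3-positive A, CD4 Foxp3-positive B or CD4 Foxp3-positive C, and it was 5 without CD4 control C. Abcg1 had an interaction of 0.07 (95% interval -0.27 to 0.40) and Fdps of 0.11 (-0.31 to 0.53). Lss (0.32, -0.10 to 0.74) and Hsd17b7 (0.51, 0.07 to 0.96) had larger falls in CD4 than in CD8 cells, but neither interaction passed (adjusted p = 0.341 and 0.129).

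The controls differed between CD8 and CD4 cells in more members than the sorted groups did, and the same held over all genes. Among controls 11 of 28 members were higher in CD8 cells, against 12.1% of all genes, and 3 were lower, against 8.76% of all genes. The member median was 0.23 and that of all genes 0.00. In Foxp3-positive cells 1 member was higher in CD8 cells, against 2.41% of all genes, and none was lower, against 2.3% of all genes. There the member median was 0.05, and the differences ran from -0.27 to 0.52. These comparisons use the same arrays as the comparisons above, so they are not separate evidence.

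In CD8 controls Scd1 and Hmgcs1 stood furthest above CD4 controls. Scd1 was at 8.69, 8.55 and 9.27 in CD4 controls, below all CD8 controls (2.21-fold higher in CD8, log2 difference 1.15 ± 0.18, adjusted p = 0.000563). Hmgcs1 was 2.13-fold higher in CD8 controls (log2 difference 1.09 ± 0.17, adjusted p = 0.000441) with no overlap of the arrays given above. Pmvk, Dhcr7, Acaca, Tm7sf2, Msmo1, Cyp51 and Sqle were higher by 0.45 to 0.72 (adjusted p from 0.000469 to 0.0138). Fdps (0.41, adjusted p = 0.0494) and Scap (0.35, adjusted p = 0.0381) passed narrowly, and the Scap arrays overlapped. Abca1 was 2.63-fold lower in CD8 than in CD4 controls (log2 difference -1.39 ± 0.11, adjusted p = 1.84e-06), Mylip was lower by 0.44 on the log2 scale (adjusted p = 0.00738) and Hsd17b7 by 0.47 (adjusted p = 0.0363).

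Without CD4 control B the count of members higher in CD8 controls fell from 11 to 7, with Fdps, Sqle (adjusted p = 0.0642), Msmo1 (0.0541) and Scap lost. Fdps was lost in 9 of 12 fits without 1 array (0.0553 to 0.161), all but those without CD8 Foxp3-positive C, CD4 Foxp3-positive B or CD4 Foxp3-positive C, and with quantile normalization (0.0691). Hsd17b7 was lost without any 1 CD8 control, without CD4 control B or C (0.0536 to 0.15) and with arrays centred on their median (0.0652). Scap was lost without CD8 control A or B, CD4 control B or C, or CD4 Foxp3-positive A (0.0519 to 0.143), and in a fit of only the groups compared (0.102). Among the sorted groups the 1 called member was Fdps (9.53 ± 0.18 in CD8 and 9.01 ± 0.26 in CD4, log2 difference 0.52 ± 0.14, adjusted p = 0.0499). It was lost in 9 of 12 fits without 1 array (0.0591 to 0.189), all but those without CD8 control C, CD8 Foxp3-positive C or CD4 Foxp3-positive C. It was also lost in a fit of only the groups compared (0.129) and with quantile normalization (0.0562). For Abca1 the sorted groups differed by 0.04 (95% interval -0.19 to 0.28) and for Hmgcs1 by 0.11 (-0.26 to 0.47).

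**Figure D4:**
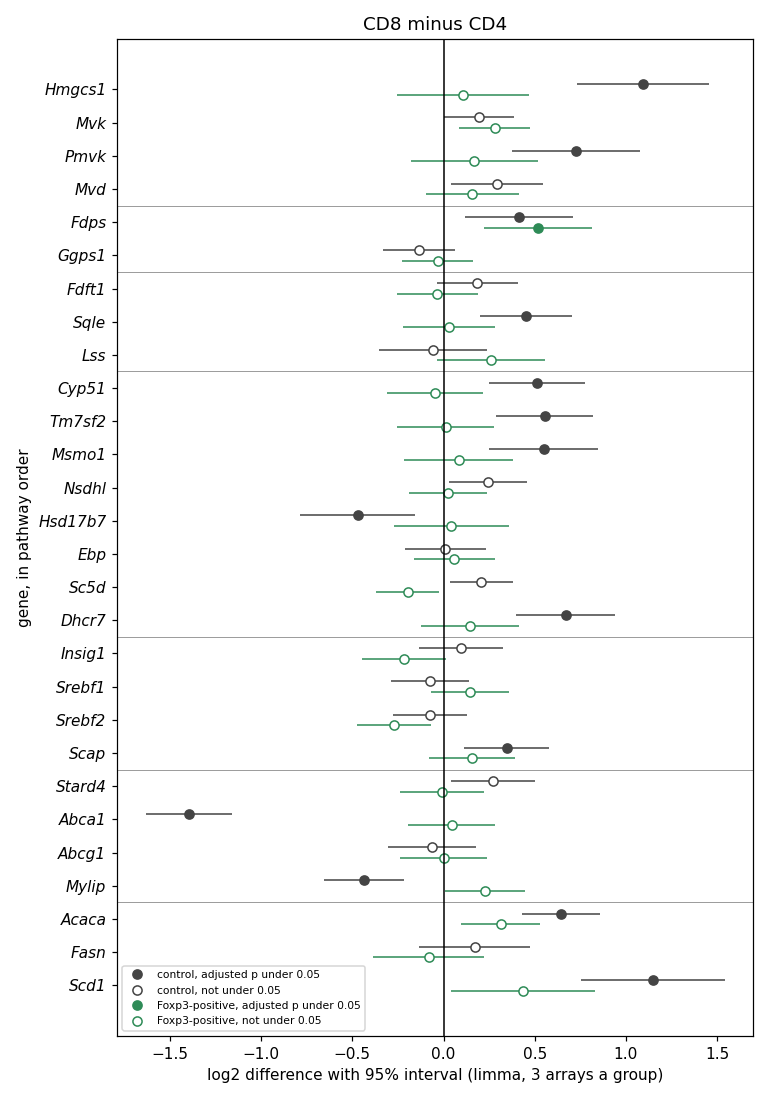
CD8 minus CD4 log2 difference of each member in controls (grey) and in Foxp3-positive cells (green), with 95% intervals from limma; filled points had adjusted p under 0.05. The grey points spread from -1.39 (Abca1) to 1.15 (Scd1), and the green points lie between -0.27 and 0.52.

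The CD8 control group held the highest mean of the 4 groups for 18 of the 28 members and for 13 of the 17 enzymes; it held it for 28% of all genes. The mean level of the 17 enzymes was 9.22 to 9.41 on the CD8 control arrays and 8.89 to 9.12 on the CD4 controls. It was 8.47 to 8.69 on the CD8 Foxp3-positive arrays and 8.47 to 8.52 on the CD4 Foxp3-positive arrays. The 2 control groups did not overlap with each other or with the sorted groups, while the sorted groups overlapped.

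Cell cycle genes moved beside the enzymes in CD8 cells and not in CD4 cells. Of 19 cell cycle genes 18 fell in CD8 Foxp3-positive cells (median -0.56) and none rose. In CD4 cells none fell and 2 rose, Mki67 and Aurkb (median 0.01), while 10 of 17 sterol enzymes fell. The shares of all genes were 10.6% lower and 9.39% higher in CD8 cells and 10.4% lower and 12.1% higher in CD4 cells. In the interaction 12 of the 19 were lower and none higher, against 7.48% and 6.01% of all genes. Array means of the cell cycle genes were 10.43 to 10.65 in CD8 controls, 9.91 to 10.11 in CD8 Foxp3-positive, 9.99 to 10.23 in CD4 controls and 10.04 to 10.20 in CD4 Foxp3-positive cells. CD8 control C, at 10.43, lay below CD8 controls A and B, at 10.63 and 10.65. Between controls 15 of the 19 were higher in CD8 cells, against 12.1% of all genes. The part of the cell cycle genes in the sterol differences was not tested in either cell type or between controls.

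**Figure D5:**
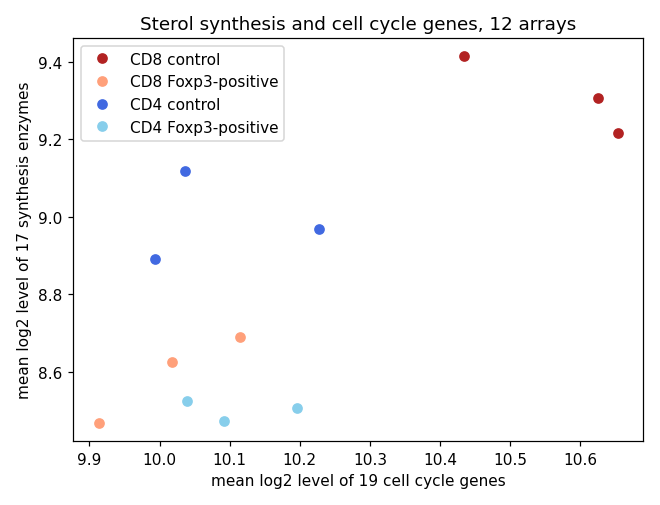
Mean log2 level of the 17 synthesis enzymes (vertical) against that of 19 cell cycle genes (horizontal), a point for each of the 12 arrays. The CD8 controls lie apart at the upper right, and the CD4 controls lie above the CD4 Foxp3-positive arrays at similar cell cycle levels.

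Markers of other cells bear on the exporters, since macrophages and dendritic cells also make them. Beside the marker counts below stand the shares of all genes, 9.39% higher and 10.6% lower in CD8 cells. In CD4 cells these shares were 12.1% higher and 10.4% lower. With 3 to 13 markers a list, the counts are descriptions. Of 12 macrophage and monocyte markers 4 rose in CD8 Foxp3-positive cells (Lyz2, C1qb, Apoe and Itgam) and Cd68 fell. In CD4 cells 2 rose (Lyz2 and Itgam) and 1 fell. Their summed signal was 701 to 889 in CD8 controls, 731 to 1028 in CD8 Foxp3-positive, 731 to 793 in CD4 controls and 580 to 678 in CD4 Foxp3-positive cells. In these groups 9, 7, 10 and 9 of the 12 lay below the median of all genes. Cd68, the brightest of the 12, fell from 8.56 to 7.92 in CD8 and from 8.57 to 7.38 in CD4 cells. Lyz2 rose from 4.55 to 6.37 and from 4.45 to 5.51, and Itgam from 6.19 to 7.38 and from 5.24 to 6.62. Array means of the 12 did not overlap between the CD8 groups (controls 5.264 to 5.399, Foxp3-positive 5.460 to 5.864). They overlapped between the CD4 groups (controls 5.248 to 5.393, Foxp3-positive 5.281 to 5.519). Of 13 dendritic cell markers Ccr7 rose and Itgax and Batf3 fell in CD8 cells, and Ccr7 and Cd83 rose and Batf3 and H2-Ab1 fell in CD4 cells. Their summed signal was 2099 to 2769, 3094 to 3625, 2728 to 3340 and 2517 to 3605 in the same order of groups. Ccr7, a homing receptor that T cells also express, rose from 8.97 ± 0.42 to 10.48 ± 0.16 in CD8 cells (adjusted p = 7.39e-05). Without Ccr7, left out after its values were seen, the sum was 1726 to 2099, 1779 to 2002, 2160 to 2683 and 1450 to 2118, and the CD8 groups overlapped. Of 6 B cell markers Cd79a and Cd79b rose in CD8 cells, and in CD4 cells Cd79b rose and 1 fell. Their summed signal was 284 to 338, 464 to 525, 222 to 229 and 235 to 288. Of 3 NK cell markers only Eomes, a factor that activated T cells also make, fell in each cell type (from 8.93 ± 0.36 to 5.74 ± 0.21 in CD8 and from 8.18 ± 0.24 to 5.81 ± 0.44 in CD4 cells). The summed signal of the 3 was 420 to 662, 87.6 to 108, 297 to 408 and 77.8 to 119. The other markers, Ncr1 and Klrb1c, had group means of 3.57 to 4.90, below the median of all genes, and neither passed in either cell type. Of 5 T cell markers, with array means of 10.93 to 11.49, Cd3e rose in both cell types, and Cd3d and Cd3g fell in CD4 cells. The part of other cells in the rise of Abca1, Abcg1 and Mylip was not tested.

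Genes around the pathway were described from lists by function. Beside their counts stand the shares of all genes, 9.39% higher and 10.6% lower in CD8 cells and 12.1% higher and 10.4% lower in CD4 cells. With 6 to 10 measured genes a list, the counts are descriptions, and nothing particular to a list is read from them. Of 6 further regulators of SREBP 2 rose and 1 fell in each cell type. Mbtps1, the protease that makes the first cut of SREBP, rose by 0.55 in CD8 and 0.42 in CD4 cells (adjusted p = 0.00103 and 0.00596). Rnf139, a ubiquitin ligase of the endoplasmic reticulum, rose by 0.43 and 0.51 (adjusted p = 0.00206 and 0.000551). Erlin1, a membrane protein of the endoplasmic reticulum, fell 1.65-fold in CD8 cells (adjusted p = 0.00189) and 2.51-fold in CD4 cells (adjusted p = 1.1e-05).

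Of 10 genes of fatty acid supply 5 fell and 1 rose in CD8 cells, and 4 fell and 2 rose in CD4 cells. Fads2, a desaturase of polyunsaturated fatty acids, fell 3.78-fold in CD8 cells (from 10.09 ± 0.31 to 8.17 ± 0.47, adjusted p = 0.000436) and 5.57-fold in CD4 cells (from 9.97 ± 0.18 to 7.49 ± 0.66, adjusted p = 4.14e-05). Me1, the malic enzyme that supplies NADPH, fell 2.91-fold and 4.66-fold in signal (adjusted p = 2.48e-05 and 6.92e-07). Its sorted means of 4.47 and 3.97 lay below the median of all genes. Elovl6, which lengthens fatty acids, rose 1.83-fold in CD8 and 2.79-fold in CD4 cells (adjusted p = 2.07e-05 and 1.35e-07). Mid1ip1, which promotes the activity of acetyl-CoA carboxylase, fell by 1.11 and 0.68 on the log2 scale (adjusted p = 1.44e-06 and 7.91e-05).

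Of 10 genes of sterol uptake, storage and oxysterols 3 fell and 2 rose in CD8 cells, and 2 fell and 1 rose in CD4 cells. Npc2, which hands cholesterol out of lysosomes, rose in CD8 cells from 10.71 ± 0.23 to 11.30 ± 0.04 (adjusted p = 0.00638) and fell in CD4 cells from 12.01 ± 0.07 to 11.03 ± 0.26 (adjusted p = 0.000143). The interaction was 1.57 ± 0.19 (adjusted p = 0.000172). Tmem97, a sterol-responsive membrane protein, fell 1.93-fold in CD8 cells (adjusted p = 0.000272), and its CD4 difference was -0.20 (adjusted p = 0.342). Lipa, the lysosomal lipase that frees cholesterol from its esters, rose by 0.42 and 0.58 (adjusted p = 0.00946 and 0.00093). Lbr, which can act as a sterol reductase, fell by 0.61 on the log2 scale in CD8 cells (adjusted p = 0.000195). Lpcat3, a phospholipid enzyme and liver X receptor target, fell by 0.67 in CD4 cells (adjusted p = 0.000102) and differed by -0.22 in CD8 cells (adjusted p = 0.111). Of 8 users of isoprenoids 1 rose and 2 fell in CD8 cells, and 2 rose and none fell in CD4 cells. Fntb, the beta subunit of farnesyltransferase, rose 1.82-fold and 1.76-fold (adjusted p = 2.15e-05 and 2.51e-05). Cox10 and Rabggtb, which use isoprenoids for heme A and for anchoring Rab proteins, fell by 0.46 and 0.43 on the log2 scale in CD8 cells (adjusted p = 0.0291 and 0.0256). Dhdds, which extends farnesyl units towards dolichol, rose by 0.36 in CD4 cells (adjusted p = 0.00616).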

How the data were processed

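RNA of sorted T cells was hybridised to 12 Affymetrix arrays. The authors deposited log2 values per transcript cluster; the submitters' processing notes name RMA and Affymetrix Expression Console, and the sources used here give no version, genome build or background level. Clusters with 1 symbol in the platform annotation (23521 of 34365) were kept, the brightest standing for a gene, with no filter on low values. All 12 arrays entered 1 limma fit (lmFit and eBayes, limma 3.58.1, R 4.3.3) with 4 group means, two-sided, adjusted by Benjamini-Hochberg over 22180 genes, threshold 0.05. The script was tested on simulated data. All measured members are named; array values are given for the largest changes of each role and for called interactions, and for some others chosen after their values were seen, such as Srebf2 and Abcg1. From each related list up to 3 of the largest called changes in each cell type are named. The members and all lists were chosen with earlier results of these data known. Alternatives were the mean of a gene's clusters, a low-value filter, only the groups compared, a trended robust variance, centring, quantile normalization, a replicate block and leaving out each array. No batch or scan date is given in the labels, and none was tested. Of 18 same-letter pairs of arrays 2 correlated over 0.1 in their deviations from group means, both between the CD8 groups. For CD8 control against CD8 Foxp3-positive arrays, same-letter values were 0.054 to 0.137 and different-letter values -0.136 to 0.016. Between the CD4 groups same-letter values were -0.102 to 0.012. The letters may therefore pair some samples, and this was not settled.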

Additional observations from a re-analysis of the deposited data

Results flagged for a closer look

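The difference between Foxp3-positive and control cells was not the same in CD8 and CD4 cells for 5 members, by limma's interaction test over all genes. Of all genes 6.01% were higher and 7.48% lower in this test, against 2 and 3 of the 28 members. On the log2 scale the interaction was 1.44 for Abca1 (adjusted p = 6.91e-05), whose CD8 controls were lower than its CD4 controls. It was 0.66 for Mylip (adjusted p = 0.00824), -0.99 for Hmgcs1 (adjusted p = 0.0153), -0.40 for Sc5d (adjusted p = 0.0321) and -0.56 for Cyp51 (adjusted p = 0.0496). Of the 12 fits that left out 1 array, Cyp51 lost the call in 10 and Sc5d in 9, while the other 3 kept it in all. Culture time differed between the cell types, and its part cannot be told apart from theirs. Groups of 3 arrays are too small for a test of single outlying arrays.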

How the results depend on the processing

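No difference of a member that passed the test changed direction under any alternative run. Of 140 differences (28 members in 5 comparisons), the number that lost the call was 1 with the mean of a gene's clusters, 0 with the filter on low values, 0 with a trended and robust variance, 1 with centring and 3 with quantile normalization; 0, 13, 9, 2 and 3 gained it. With only the groups compared 2 of 112 lost it. Members lower in CD4 Foxp3-positive than in CD4 control cells numbered 14. With the filter and with the trended and robust variance they numbered 16, with quantile normalization 15, and without 1 array 11 to 15. Members lower in CD8 Foxp3-positive than in CD8 control cells numbered 20, and 19 to 21 under the alternatives. Members lower in the interaction numbered 3, against 6 with the filter, 5 with the trended and robust variance and 1 to 5 without 1 array. Members higher in CD8 than CD4 Foxp3-positive cells numbered 1, against 3 with the filter, 0 with only the groups compared, 0 with quantile normalization and 0 to 1 without 1 array; those lower numbered 0, against 1 (Srebf2) with the trended and robust variance. Members higher in CD8 than in CD4 controls numbered 11, against 15 with the filter, 13 with the trended and robust variance, 12 with centring, 10 with each other setting and 7 to 11 without 1 array. The cause was not tested, beyond the filter testing fewer genes (11813). In CD8 cells Srebf1 (adjusted p from 0.0202 to 0.0401) and Ggps1 (0.0281 to 0.0418) passed with the filter, the trended and robust variance and quantile normalization. In CD4 cells Msmo1 passed with the same settings (0.0345 to 0.0385) and without CD8 control C (0.0366). Sc5d passed there with the filter (0.0374) and the trended and robust variance (0.0437).

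The replicate block, with letters A to C as blocks, lost 4 calls and gained 1; under it 0 members were higher in CD8 than in CD4 Foxp3-positive cells. The calls lost were Cyp51 in the interaction (adjusted p = 0.0783), Fdps between CD8 and CD4 Foxp3-positive cells (0.0652), and Fdps (0.0599) and Hsd17b7 (0.0504) between controls. Whether the letters pair the samples was not settled, so how to weigh these losses cannot be told. Centring moved the median difference of all genes by at most 0.046 and quantile normalization by at most 0.015. Clusters of near-identical copies, such as Scd1 beside Scd2, may read both. Scap had 2 clusters, and its difference between controls lost the call with their mean (0.28, adjusted p = 0.0834). No background level was given, so the range of fold changes of dim genes such as Me1 and Abca1 is limited.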
